A study of Homo sapiens with 4 samples.

Results

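Replication-dependent histone genes encode the histones that package newly copied DNA, and they were measured in colorectal cancer cells grown as adherent cultures or as spheroids. The members are the protein-coding genes of the deposited gene table whose names place them in the HIST1, HIST2, HIST3 or HIST4 gene clusters, 71 of 19951 protein-coding genes and of 58735 genes in all. They comprise 6 H1, 17 H2A, 18 H2B, 15 H3 and 15 H4 genes. By cluster, 55 lie in HIST1 on chromosome 6, 12 in HIST2 and 3 in HIST3 on chromosome 1, and HIST4H4 lies alone on chromosome 12. A further 19 genes with such names but other biotypes were not counted as members.

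The cells were HCT116 and LOVO, established lines of human colorectal cancer, and each line was sequenced as adherent cells and as spheroids, with 1 RNA-seq library per line and growth form and all 4 labelled as wild type. Adherent cells grew in RPMI-1640 with serum and without drug. Spheroids grew from single cells in ultralow attachment dishes in serum-free DMEM/F12 with B27, N2, bFGF and EGF, and with oxaliplatin, a platinum drug, at 1 μg/ml according to the methods of the study. The labels give 1 mg/ml and do not name the drug. Growth form, medium and drug changed together and cannot be told apart. With 1 library per condition, no difference between spheroids and adherent cells of a line has a replicate check, and counting intervals cover counting error only.

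The depth was 15483569 to 20429147 reads on genes per library. The label of the lines was read against colon epithelial markers. KRT8 and KRT18 were present in all 4 libraries, at 81.6 to 571 FPKM. EPCAM and CDH1, which define epithelial cells, stood at 85.6 and 31.1 FPKM in adherent HCT116 cells and at 79.3 and 31.1 FPKM in HCT116 spheroids. In the libraries labelled LOVO they were near or below 1 FPKM, EPCAM at 0.93 and 1.5 FPKM and CDH1 at 0.117 and 0.00805 FPKM. CDX2 stood at 3.84 and 3.12 FPKM in HCT116 and at 0 in LOVO, while VIL1 and LGALS4 were below 0.1 FPKM in every library and do not set the lines apart. The LOVO libraries were thus at 1.5 FPKM or less for EPCAM, CDH1 and CDX2, and the name LOVO is used for them only as the label gives it. Among 8 markers of other cell types, the summed FPKM was 5.92 and 16.5 in HCT116 and 20.3 and 22.6 in LOVO, mainly from COL1A1, from DCN in LOVO and from PECAM1 in LOVO spheroids, while the blood cell markers PTPRC, CD3E and HBB stayed below 0.05 FPKM in every library. The part of these cell type differences in the results below was not tested.

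Replication-dependent histone genes are transcribed together in S phase, when the coactivator NPAT gathers at the clusters. Most of their mRNAs are not polyadenylated. They end just after a short stem-loop that is bound by the stem-loop binding protein SLBP, and the pre-mRNA is cut there with the help of the U7 small nuclear ribonucleoprotein. When DNA synthesis stops, these mRNAs are normally degraded. Some of the genes can also give longer, polyadenylated transcripts that run past the stem-loop. The labels name an mRNA library kit but not how it primes, and the way in which polyadenylated and stem-loop ended mRNAs enter such libraries was not tested here.

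Sequences of the stem-loop and the promoter are shown first, since they define the shared processing and the class-specific control of these genes. The spans and lengths of all 71 members in the deposited table equal those of GENCODE 29 on GRCh38, and the stem-loop was searched in the GENCODE 29 transcripts. It was found in 32 of the 71 gene models. The capitals below mark the bases that pair to form the stem, with the loop between them in lower case and 5 flanking bases on each side, all within 3′ untranslated regions.
HIST1H2AC: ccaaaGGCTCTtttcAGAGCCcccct
HIST1H2BD: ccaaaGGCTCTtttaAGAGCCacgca
HIST1H4I: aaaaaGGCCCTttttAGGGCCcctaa
HIST1H2AG: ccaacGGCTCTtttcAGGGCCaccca
HIST1H3E: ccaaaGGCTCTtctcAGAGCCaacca
The form of HIST1H2AC, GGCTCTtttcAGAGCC, was the most frequent, in 17 of the 32 members. The form of HIST1H2BD was shared by 5 members and that of HIST1H4I by 3, and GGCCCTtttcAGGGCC was found in 5 further members. The forms of HIST1H2AG and HIST1H3E were each found in that member alone. All 8 H4 genes with a stem-loop in their model carried a form that begins with GGCCCT.

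Promoter windows of 300 bases, from 250 before to 50 after the RefSeq gene start, were taken from RefSeq (GRCh38.p14) and were found for 61 of the 71 members. For 57 of them the RefSeq start lay within 100 bases of the start of the deposited gene. It lay 809 bases away for HIST1H2BN, 694 for HIST1H4I, 402 for HIST1H3G and 104 for HIST1H4H. The 120 bases before the start are printed for the members with the highest level in H1 and H2B, for HIST1H2BD, which had the highest mean fold change, and for HIST1H3E, which stood apart between the lines. The capitals mark matches to TATAAA, to CCAAT or its reverse complement ATTGG, to the octamer ATTTGCAT and to AAACACA, a motif known from H1 promoters.
HIST1H1C, minus strand, chr6:26056471-26056590: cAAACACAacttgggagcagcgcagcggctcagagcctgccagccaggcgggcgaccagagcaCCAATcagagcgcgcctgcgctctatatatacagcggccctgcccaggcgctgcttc
HIST1H2BK, minus strand, chr6:27146856-27146975: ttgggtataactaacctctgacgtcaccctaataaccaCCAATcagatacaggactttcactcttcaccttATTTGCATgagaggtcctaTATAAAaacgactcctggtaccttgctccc
HIST1H2BD, plus strand, chr6:26158002-26158121: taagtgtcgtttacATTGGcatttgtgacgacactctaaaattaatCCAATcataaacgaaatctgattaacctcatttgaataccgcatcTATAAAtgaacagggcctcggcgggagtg
HIST1H3E, plus strand, chr6:26224058-26224177: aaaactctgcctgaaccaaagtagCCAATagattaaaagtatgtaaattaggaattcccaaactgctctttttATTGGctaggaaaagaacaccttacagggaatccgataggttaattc
Motifs were searched in the whole windows on both strands, and a match is a description of the letters only. Windows of some neighbouring H2A and H2B genes overlap, as for HIST1H2AG and HIST1H2BJ, so the same match can be counted in both classes. CCAAT was found in all 6 H1, 16 H2A, 13 H2B and 13 H3 windows but in 3 of 13 H4 windows, against 34.6% of all 35116 RefSeq windows. The octamer was found in 11 of 16 H2A and 9 of 13 H2B windows and in 0 windows of H1, H3 and H4, against 1.77% of all windows. AAACACA was found in all 6 H1 windows, in 1 H2A window and 2 H3 windows, and in 0 H2B and H4 windows, against 5.64% of all windows. TATAAA was found in 42 of 61 windows, against 11.5% of all.

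Levels were read in FPKM, fragments per kilobase of gene scaled to the size of the library, as the authors deposited them. Summed over the 71 members, FPKM was 74.3 in adherent cells and 180.3 in spheroids of HCT116, and 813 in adherent cells and 1381 in spheroids of LOVO. Both LOVO libraries stood above both HCT116 libraries, and in each line the spheroids stood above the adherent cells. The reads behind these sums numbered 1302, 2686, 10499 and 21196, which is 0.00637%, 0.0173%, 0.0531% and 0.111% of the reads on genes. The histone genes were therefore a small part of every library, and the low counts in HCT116 limit what can be said about single members there.

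**Figure D1:**
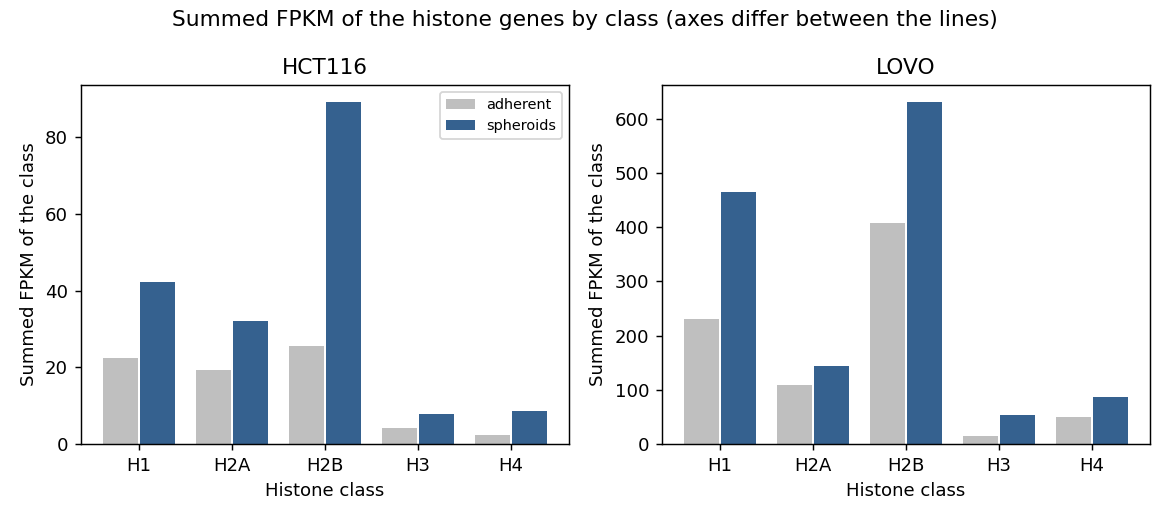
Bars give the summed FPKM of the members of each histone class in adherent cells (grey) and spheroids (blue), 1 library per bar, with HCT116 on the left and LOVO on the right on axes of different range. Spheroids were above adherent cells in all 5 classes of both lines, and H2B had the highest sum in each of the 4 libraries. Without HIST1H2BK, H2B stayed above H1 only in HCT116 spheroids, at 47.5 against 42.2 FPKM.

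By class, H2B and H1 made up most of the sum. H1, the linker histones that bind DNA between nucleosomes, summed to 22.6 and 42.2 FPKM in adherent cells and spheroids of HCT116 and to 231 and 466 FPKM in LOVO. H2A summed to 19.5 and 32.2 FPKM in HCT116 and to 110 and 144 FPKM in LOVO. H2B, which pairs with H2A in the nucleosome, summed to 25.7 and 89.2 FPKM in HCT116 and to 407 and 631 FPKM in LOVO. Spheroids were higher in each of these sums, by a ratio between 1.31 for H2A in LOVO and 3.47 for H2B in HCT116.
H3 and H4, which form the central tetramer of the nucleosome, were much lower. H3 summed to 4.16 and 7.90 FPKM in HCT116 and to 15.2 and 54.1 FPKM in LOVO. H4 summed to 2.39 and 8.78 FPKM in HCT116 and to 50.7 and 86.5 FPKM in LOVO. H3 had the highest ratio of spheroids to adherent cells among the classes in LOVO, 3.56. In HCT116 the ratio was 3.67 for H4 and 3.47 for H2B, an order that turned with 1 member per near-identical group, where the log2 ratio was 1.60 for H4 and 1.80 for H2B. The share of H3 in the summed FPKM was 5.60% at most in any library. This is a share of RNA over the members only. It leaves out H3 genes such as H3F3A and H3F3B and does not measure histone protein.

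A few genes carried these sums. The 5 members with the highest mean FPKM, HIST1H2BK, HIST1H1C, HIST1H2BD, HIST1H2AC and HIST3H2A, held 75.2% to 83.3% of the summed FPKM in each library, and HIST1H2BK and HIST1H1C alone held 45.8% to 68.2%. Without those 5 genes, the sum over the other 66 members was 15.6 and 30.1 FPKM in HCT116 and 148 and 342 FPKM in LOVO, so that spheroids were still 1.93 and 2.30 times the adherent cells. The median member stood at 0.113 and 0.154 FPKM in HCT116 and at 0.655 and 1.41 FPKM in LOVO, where the median of all protein-coding genes was 1.54 to 2.14 FPKM over the 4 libraries.

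The HIST1 cluster, with 55 members, held 77.7% to 94.2% of the sum, at 57.7 and 159 FPKM in HCT116 and 761 and 1301 FPKM in LOVO. HIST1 is split by a gap of 840259 bases between HIST1H4H and HIST1H2BJ. The 34 members before the gap summed to 39.6 and 105 FPKM in HCT116 and to 332 and 658 FPKM in LOVO, and the 21 members after it to 18.1 and 54.5 FPKM in HCT116 and to 429 and 643 FPKM in LOVO. Spheroids were higher in both blocks and in both lines. In LOVO the ratio was 1.98 before the gap and 1.5 after it, where HIST1H2BK lies, and in HCT116 it was 2.64 and 3.01.

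HIST2 summed to 4.13 and 4.09 FPKM in HCT116, a ratio of 0.991, and to 15.2 and 40.3 FPKM in LOVO, a ratio of 2.65. The HCT116 value turns on HIST2H2AC, which went from 15 reads to 1. Without this gene HIST2 summed to 2.25 and 3.94 FPKM in HCT116, a ratio of 1.76. Of the 11 members in that sum, 8 held 3 reads or fewer in both HCT116 libraries. HIST3 summed to 12.3 and 16.9 FPKM in HCT116 and to 35.5 and 36.9 FPKM in LOVO, mostly from HIST3H2A. HIST4H4, the single gene of its cluster, stood at 0.0761 and 0.254 FPKM in HCT116, from 4 and 11 reads, and at 1.32 and 2.70 FPKM in LOVO. Its ratio in LOVO was 2.05, with counting limits (95%, exact, Clopper-Pearson) of 1.5 and 2.81, while in HCT116 the interval ran from 0.989 to 14.4 and included 1.

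The gene models differ in what part of the mRNA they hold. For 39 members the model held no stem-loop, with a median length of 393 bases, and 35 of these have a length that is a multiple of 3. The length alone does not show how much of a model lies outside the coding sequence. For 8 members the model ended within 100 bases of the stem-loop, and for 24 it ran on further, or another transcript of the gene did, with a median length of 1902.5 bases. Of these 24 members, 16 passed the filter on low values used below (a mean of 1 FPKM or more across the 4 libraries), as did 2 of the 8 and 10 of the 39. Members that extend past the stem-loop summed to 31.8 and 87.8 FPKM in HCT116 and to 191 and 335 FPKM in LOVO. Those that end at it summed to 1.65 and 1.90 FPKM in HCT116 and to 12.0 and 36.4 FPKM in LOVO. HIST1H2BK and HIST1H1C, the most abundant members, belong to the models without a stem-loop, which summed to 40.8 and 90.5 FPKM in HCT116 and to 610 and 1009 FPKM in LOVO.

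Histone genes resemble each other, and reads on shared sequence cannot be assigned with certainty. Of the 71 members, 41 shared at least 1 stretch of 50 bases with the transcript of another gene, and in 17 of them more than 50% of all such stretches were shared. HIST1H2BK was one of these, with 74.1% shared, most of it with H2BFS. HIST1H4K shared 100% with HIST1H4J, and HIST1H2AI shared 62.3% with HIST1H2AJ, so their values are uncertain. Exons of another gene overlapped 15 members, among them HIST1H2BE and HIST1H2BN. The 54 members with at most 50% shared summed to 59.5 and 135 FPKM in HCT116 and to 471 and 909 FPKM in LOVO, with spheroids 2.27 and 1.93 times the adherent cells.

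Fold changes of single members were computed on the log2(FPKM + 1) scale as spheroids minus adherent cells, which understates the change of low genes. Of 14429 genes averaging 1 FPKM or more, 28 were members. Their median log2 fold change was 0.43 in HCT116 and 0.80 in LOVO, where the median of all genes compared was -0.033 and -0.055. Over all 71 members without the filter, the medians were 0.034 and 0.56. In HCT116, 6 of the 28 were above 1, against 2.19% of all genes compared, 1 was below -1, against 3.33%, and 1 was above 2, against 0.201%. In LOVO, 11 of the 28 were above 1, against 8.57% of all genes compared, 0 were below -1, against 7.85%, and 1 was above 2, against 1.81%. A member could pass the filter through the libraries in which it was high, so these counts describe the members compared and not all members. With a pseudocount of 0.1 in place of 1, 13 of the 28 were above 1 in HCT116, as were 764 of all genes compared, and on the TPM scale 17 of the 28 were above 1 in LOVO, as were 2267 of all genes. Over all 71 members without the filter, 37 were higher and 12 lower in HCT116 spheroids with 22 at 0 in both libraries, where 44.2% of all protein-coding genes were higher. In LOVO spheroids 52 were higher and 7 lower with 12 at 0 in both, where 41.2% of all protein-coding genes were higher. These counts go by value, and 41 members in HCT116 and 19 in LOVO held 3 reads or fewer in both libraries. HIST1H2AH, for one, counts as higher in HCT116 with 1 read in each library. No share of all protein-coding genes stands beside the counts of lower members. In both lines at once, 30 of the 71 were higher in spheroids, against 25% of all protein-coding genes, whereas HIST2H2AC alone was lower in both. HIST1H2BD and HIST1H4K were above 1 in both lines, against 0.645% of the genes compared. HIST1H4K shares its sequence with HIST1H4J, as given above, so its value is uncertain.

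**Figure D2:**
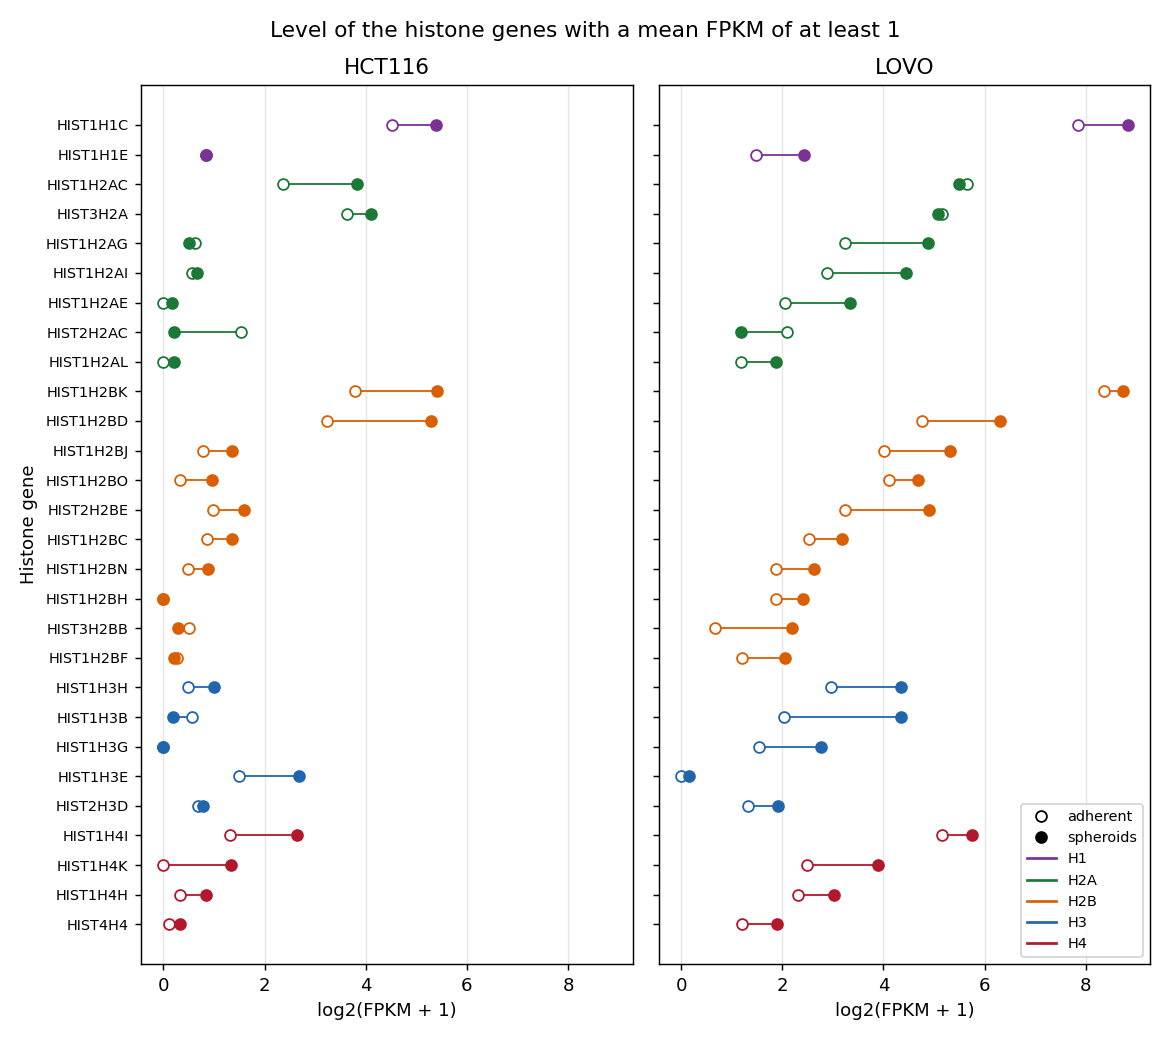
Points give log2(FPKM + 1) of the 28 members that average 1 FPKM or more, in adherent cells (open) and spheroids (filled) of HCT116 (left) and LOVO (right), 1 library per point, coloured by class. In LOVO 25 of the 28 members were higher in spheroids, against 21 in HCT116, with no share of all genes compared beside these counts. The median log2 fold change of all genes compared was -0.055 in LOVO and -0.033 in HCT116, so most of those genes were lower in spheroids. Every member except HIST1H3E was higher in LOVO than in HCT116 in the same growth form.

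Counting error was then set beside each ratio, from the reads recovered behind the FPKM. In HCT116 the interval of the FPKM ratio lay above 1 in 16 of the 71 members, where it did in 22.2% of all protein-coding genes, so this count is at the background. It lay below 1 in 1 member, against 24.6% of all protein-coding genes. In LOVO it lay above 1 in 36 members, against 25.3%, and below 1 in 3, against 29.8%. In 13 of the 71 members it lay above 1 in both lines, against 10.5% of all protein-coding genes: HIST1H1C, HIST1H2BK, HIST1H2BD, HIST1H2BJ, HIST2H2BE, HIST1H2BN, HIST2H2BF, HIST1H2BE, HIST1H3H, HIST1H3E, HIST1H4I, HIST1H4K and HIST1H4H. Of these, 7 are H2B genes, a class of 18 members. In 41 members both HCT116 libraries held 3 reads or fewer, and in 19 both LOVO libraries did, so that no difference was detectable there at this depth.

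**Figure D3:**
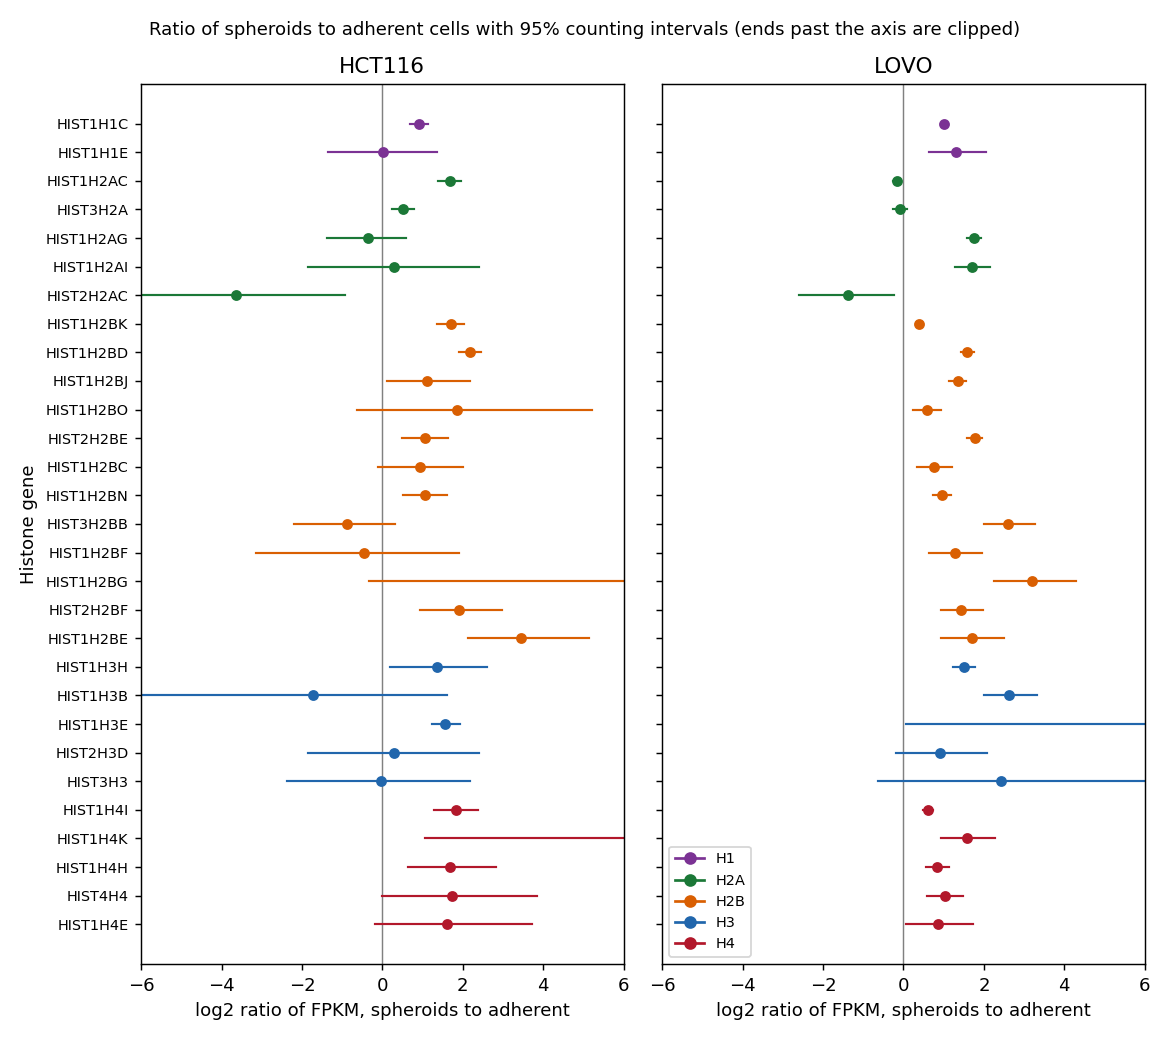
Points give the log2 ratio of FPKM in spheroids to adherent cells and lines its 95% exact counting interval, for the 29 members with more than 3 reads in at least 1 library of each line, in HCT116 (left) and LOVO (right), coloured by class, with no point where the adherent library held 0 reads. The intervals in HCT116 are wide, as for HIST1H3B with 4 reads and 1 read, and HIST1H2AC lies on opposite sides of 0 in the lines.

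Among the linker histones, HIST1H1C, which encodes H1.2, stood at 21.8 FPKM in adherent cells and 40.9 FPKM in spheroids of HCT116, and at 228 and 457 FPKM in those of LOVO. Spheroids were 1.88 times adherent cells in HCT116 (95% exact counting interval 1.61 to 2.19) and 2.0 times in LOVO (1.91 to 2.10). The other H1 genes were far lower. HIST1H1E, encoding H1.4, was level in HCT116 at 0.781 and 0.789 FPKM, with an interval of the ratio from 0.391 to 2.55, and stood at 1.77 and 4.42 FPKM in LOVO. HIST1H1B, encoding H1.5, had 0 reads in both HCT116 libraries and stood at 0.655 and 3.21 FPKM in LOVO, from 8 and 44 reads. HIST1H1D had 6 reads in HCT116 spheroids and 0 in the other libraries. HIST1H1T, the testis H1 gene, had 1 and 10 reads in LOVO and 0 in HCT116.

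Of the 7 H2A genes compared, 3 went in opposite directions in the lines by value, where 35.8% of all genes compared did. HIST1H2AC stood at 4.15 FPKM in adherent HCT116 cells and 13.2 FPKM in HCT116 spheroids, and at 49.6 FPKM in adherent LOVO cells and 44.4 FPKM in LOVO spheroids. Its log2 fold change was 1.46 in HCT116 and -0.16 in LOVO, and it was the 1 member whose counting intervals excluded equal levels in opposite directions, from 2.62 to 3.89 times in HCT116 and from 0.832 to 0.962 times in LOVO. The LOVO direction is not stable, since on the TPM scale the log2 fold change was 0.045. HIST3H2A, on chromosome 1, stood at 11.4, 16.2, 34.8 and 32.7 FPKM in the same order of libraries, and its log2 fold change was 0.47 in HCT116 against -0.088 in LOVO, where it turned to 0.11 on the TPM scale and to 0.045 with trimmed-mean scaling.
HIST1H2AG, whose stem-loop form shown above was found in it alone, stood at 0.545 and 0.423 FPKM in HCT116, from 25 and 16 reads, and at 8.45 and 28.3 FPKM in LOVO. The ratio in LOVO was 3.35 (2.97 to 3.79), while in HCT116 the interval from 0.387 to 1.51 included 1. HIST2H2AC was lower in spheroids of both lines, at 1.89 and 0.153 FPKM in HCT116, from 15 reads and 1 read, and at 3.29 and 1.27 FPKM in LOVO, from 23 and 10 reads. Its ratio was 0.0809 in HCT116 (0.00192 to 0.526) and 0.388 in LOVO (0.165 to 0.846), and it rests on few reads. HIST1H2AH, named after its values were seen, also had an interval below 1, in LOVO only, from 10 reads in adherent cells and 0 in spheroids.

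HIST1H2BD and HIST1H2BK, both H2B genes, had the highest log2 fold changes of the compared members in HCT116. HIST1H2BD stood at 8.45 FPKM in adherent cells and 38.1 FPKM in spheroids of HCT116, and at 26.1 and 77.9 FPKM in those of LOVO, from 150, 558, 407 and 1365 reads. Spheroids were 4.51 times adherent cells in HCT116 (3.76 to 5.44) and 2.99 times in LOVO (2.67 to 3.35), and HCT116 spheroids were above adherent LOVO cells, unlike for most members. Only 5.36% of its 50-base stretches were shared with other genes. HIST1H2BK stood at 12.9, 41.7, 326 and 427 FPKM in the same order, the highest mean of any member, with ratios of 3.24 (2.56 to 4.12) in HCT116 and 1.31 (1.24 to 1.38) in LOVO. Without it, the other 17 H2B genes summed to 12.8 and 47.5 FPKM in HCT116 and to 80.9 and 203 FPKM in LOVO.
HIST2H2BE, a HIST2 gene whose model runs 1729 bases past the stem-loop, stood at 0.962, 2.01, 8.44 and 28.7 FPKM, with ratios of 2.09 (1.41 to 3.12) in HCT116 and 3.40 (3.01 to 3.85) in LOVO. HIST1H2BJ stood at 0.723, 1.57, 15.2 and 38.8 FPKM, with ratios of 2.17 (1.08 to 4.51) and 2.55 (2.21 to 2.95). Both genes were higher in spheroids in HCT116 and in LOVO, and for both of them the intervals of the lines overlapped. HIST3H2BB and HIST1H2BF were lower in HCT116 spheroids by value, with log2 fold changes of -0.21 and -0.068 from 20 reads or fewer, and higher in LOVO spheroids, with 1.53 and 0.85. HIST1H2BE, which overlaps another gene, went from 5 to 45 reads in HCT116 and from 19 to 69 reads in LOVO, on a mean FPKM under 1.

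Among the H3 genes, HIST1H3E stood at 1.81 FPKM in adherent HCT116 cells and 5.38 FPKM in HCT116 spheroids, from 99 and 242 reads, a ratio of 2.97 (2.34 to 3.79). In LOVO it had 0 reads in adherent cells and 6 reads in spheroids, 0.111 FPKM. It was the H3 gene with the highest level in both HCT116 libraries and close to absent from both LOVO libraries. HIST1H3B stood at 0.477 and 0.145 FPKM in HCT116, from 4 reads and 1 read, and at 3.12 and 19.3 FPKM in LOVO, from 23 and 160 reads, a ratio of 6.20 (3.99 to 10.1) and the largest log2 fold change of a compared member in LOVO, 2.30. HIST1H3H stood at 0.397, 1.01, 6.81 and 19.3 FPKM, with ratios of 2.55 (1.15 to 6.06) in HCT116 and 2.84 (2.36 to 3.43) in LOVO. HIST1H3G had 0 reads in both HCT116 libraries and stood at 1.92 and 5.81 FPKM in LOVO, from 83 and 282 reads. HIST1H3E carried the H3 sum in HCT116, and without this gene, a choice made after its values were seen, H3 summed to 2.35 and 2.53 FPKM, a ratio of 1.08. Without all members of 1 kb or longer, HIST1H3E among them, the log2 ratio of summed H3 in HCT116 was -0.36, against 0.93 over all H3 genes.

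Among the H4 genes, HIST1H4I stood at 1.48 FPKM in adherent cells and 5.24 FPKM in spheroids of HCT116, and at 34.6 and 52.5 FPKM in those of LOVO. The ratios were 3.55 (2.45 to 5.24) in HCT116 and 1.52 (1.39 to 1.66) in LOVO, and the 2 intervals did not overlap. HIST1H4K had 0 reads in adherent HCT116 cells and 8 in spheroids, which is 3.24 times the floor of 3 reads per library that a count of 0 allows, with a lower counting limit (95%, exact) of 2.07 for the ratio, and stood at 4.65 and 13.9 FPKM in LOVO, a ratio of 2.98 (1.91 to 4.82). Of the 50-base stretches of HIST1H4K, 100% are shared with HIST1H4J, so the split of reads between them is uncertain. The log2 fold change of HIST1H4J in LOVO was -0.083, and 0.030 on the TPM scale. HIST1H4H, with 1655 bases past the stem-loop, stood at 0.250, 0.798, 4.0 and 7.12 FPKM. It was higher in spheroids by 3.20 times (1.55 to 7.10) in HCT116 and 1.78 times (1.47 to 2.18) in LOVO.

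**Figure D4:**
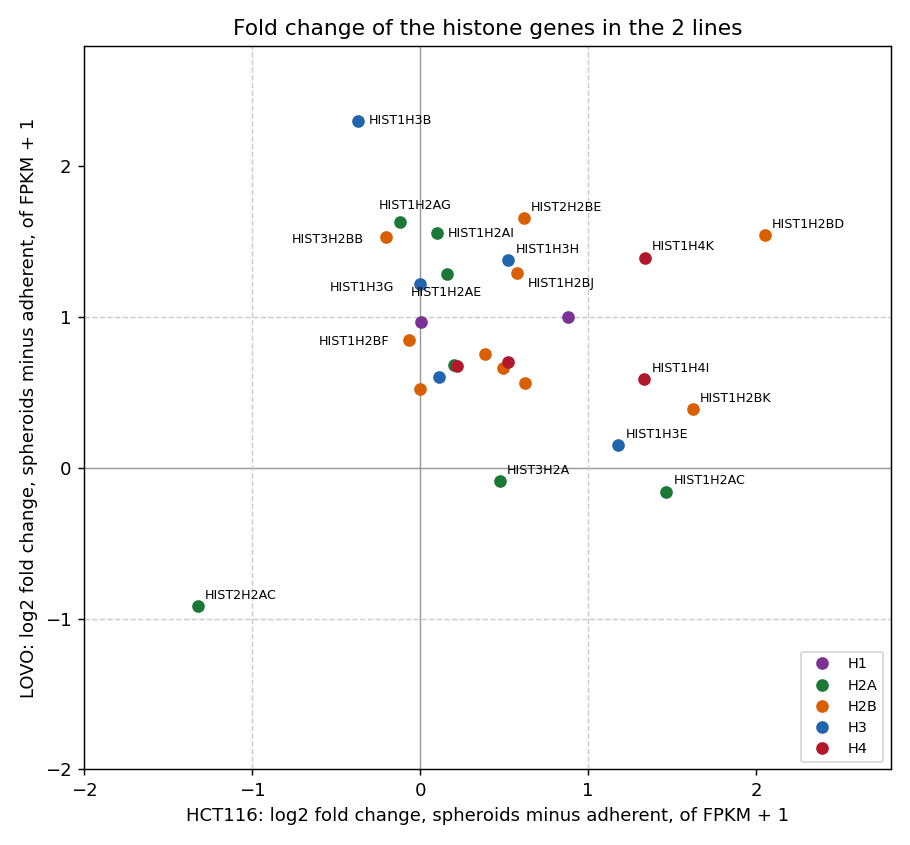
Each point is 1 of the 28 members compared, with its log2 fold change of FPKM + 1 (spheroids minus adherent) in HCT116 on the horizontal axis and in LOVO on the vertical axis, coloured by class, with dashed lines at 1 and -1. HIST1H2BD and HIST1H4K lie above 1 on both axes, HIST1H2AC and HIST1H2BK lie at 1.46 and 1.62 in HCT116 but at -0.16 and 0.39 in LOVO, and HIST2H2AC alone lies below 0 on both. Reads cannot be assigned with certainty between HIST1H4K and HIST1H4J.

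Of the members that gave little or nothing, 18 had 3 reads or fewer in all 4 libraries and 10 of these had 0 reads throughout. At 0 were HIST1H2AA, HIST1H2AK, HIST1H2AM, HIST1H2BA, HIST1H3D, HIST1H3I, HIST2H3PS2, HIST1H4F, HIST1H4G and HIST1H4L. HIST1H2AA and HIST1H2BA are known from testis, and 0 reads at this depth limits their level but does not show absence. At 1 to 3 reads in some library were HIST1H2AD, HIST1H2BB, HIST1H2BI, HIST1H2BM, HIST1H3A, HIST1H4A and the near-identical pair HIST2H3A and HIST2H3C. The testis gene HIST3H3 had 5, 4, 1 and 6 reads. A floor of 3 reads in a gene of 1 kb corresponds to 0.147 to 0.179 FPKM, and more in the shorter models of these genes. Of these 18 members, only HIST2H3A and HIST2H3C have a model that holds the stem-loop.

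Most members were higher in LOVO than in HCT116. Of the 28 members compared, 22 were above a log2 difference of 1 in adherent LOVO against adherent HCT116 cells, where 17.4% of all genes compared were, and 25 were so in spheroids, against 17.7%. The median log2 difference, LOVO minus HCT116, was 1.77 in adherent cells and 2.29 in spheroids, where over all genes it was 0.075 and 0.039. Some members, such as HIST1H3G with 0 reads in HCT116, passed the filter only through LOVO, so that a difference between the lines is partly built into these values. Over all 71 members the medians were 0.55 and 0.98, with 25 and 35 above 1. Without the filter, 48 of the 71 members were higher in LOVO in adherent cells, against 38.8% of all protein-coding genes, and 55 were in spheroids, against 39.7%. HIST1H2BK was 25.3 times higher in adherent LOVO than adherent HCT116 cells (20.7 to 31.3) and HIST1H1C was 10.5 times higher (9.26 to 11.9). HIST1H2BD, by contrast, was 3.08 times higher (2.55 to 3.74). The libraries of the lines also differed in their epithelial markers, as given above, and the part of this in the line difference was not tested.

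With the lines standing in for replicates, limma with cell line as a covariate was fitted to all 14429 genes with 1 residual degree of freedom. By limma, the Benjamini-Hochberg adjusted p was under 0.05 for 0 genes, while the unadjusted p was for 1545. Among the 28 members, 7 were higher in spheroids at an unadjusted p under 0.05, against 4.28% of all genes compared, and HIST2H2AC was lower. HIST1H2BD had a limma log2 fold change of 1.80 with a standard error of 0.27, higher in the spheroids of 2 of 2 lines, and a limma adjusted p of 0.462. The limma adjusted p of the members ranged from 0.462 to 0.778, so no member passed the test.

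Genes that make histone mRNA had medians below 0. The median of all genes compared was also below 0, at -0.033 in HCT116 and -0.055 in LOVO, so most genes compared were lower too. No share of all genes compared stands beside the counts of genes lower by any amount, here and in the lists below. The list of 17 genes for transcription in S phase and 3′ processing had median log2 fold changes of -0.26 (HCT116) and -0.29 (LOVO), with 16 and 12 of 17 lower in spheroids. SLBP, the stem-loop binding protein, stood at 46.1 and 30.8 FPKM in HCT116 and at 43.8 and 50.3 FPKM in LOVO. NPAT stood at 3.58 and 3.35 FPKM in HCT116 and at 5.22 and 5.60 FPKM in LOVO, close between growth forms. LSM10, a subunit of the U7 ribonucleoprotein, stood at 20.6 and 16.3 FPKM in HCT116 and at 25.0 and 11.9 FPKM in LOVO, while its partner LSM11 stayed between 3.01 and 4.0 FPKM. In this list 0 of 17 genes were above 1 in either line, and 2 were below -1 in LOVO, LSM10 and CPSF2, where 7.85% of all genes compared were.

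Genes of histone mRNA decay, of which 10 were found under the names of the list, had a median of -0.026 in HCT116, against -0.39 in LOVO, with 5 and 9 of 10 lower in spheroids. UPF1, the helicase that acts in this decay, stood at 21.7 and 18.7 FPKM in HCT116 and at 23.5 and 13.8 FPKM in LOVO. None of the 10 passed 1 in either direction. Histone chaperones, which carry histones to and from DNA, had medians of -0.49 and -0.53, with 17 of 20 lower in spheroids in each line, 5 and 3 of them below -1, where 3.33% and 7.85% of all genes compared were. ASF1B, which hands new H3 and H4 on during replication, stood at 32.0 and 6.61 FPKM in HCT116 and at 46.5 and 42.7 FPKM in LOVO. SSRP1, a subunit of FACT, stood at 42.9 and 20.5 FPKM in HCT116 and at 62.0 and 23.1 FPKM in LOVO.

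Genes listed as replication-independent histone variants, whose names do not place them in the clusters, had a median of -0.45 in HCT116, against -0.68 in LOVO. Of these, 11 and 10 of 11 were lower in spheroids. H1F0, the linker histone of resting cells, stood at 298 and 291 FPKM in HCT116 and at 377 and 278 FPKM in LOVO. H2AFZ stood at 124 and 78.0 FPKM in HCT116 and at 177 and 90.5 FPKM in LOVO. CENPA, the centromeric H3, stood at 13.2 and 2.13 FPKM in HCT116 and at 22.3 and 7.64 FPKM in LOVO. H2AFJ was the exception in LOVO, at 39.1 and 61.2 FPKM.

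Of 25 S-phase genes, 24 were lower by value in HCT116 spheroids and 22 in LOVO spheroids, with medians of -1.24 and -0.74. In HCT116 17 of them were below -1, against 3.33% of all genes compared, and in LOVO 3 were, against 7.85%. CCNE1, cyclin E1, was higher in both lines, and SLBP and E2F1 were higher in LOVO, by values of 0.21, 0.20 and 0.30 on the log2 scale there. PCNA, the sliding clamp of DNA polymerase, stood at 101 and 56.5 FPKM in HCT116 and at 242 and 147 FPKM in LOVO. RRM2, a subunit of ribonucleotide reductase, stood at 18.5 and 2.62 FPKM in HCT116 and at 17.6 and 8.67 FPKM in LOVO. All 12 G2 and mitosis genes were lower by value in both lines, 12 below -1 in HCT116 and 3 in LOVO, against the same shares of all genes, with medians of -2.0 and -0.89. CDC20 stood at 168 and 18.0 FPKM in HCT116 and at 43.8 and 21.9 FPKM in LOVO. The 28 histone genes compared had medians above 0 in both lines, where the lists of cell cycle genes had medians below 0. Every gene of those lists passed the filter, whereas some of the 28 members passed it only through LOVO. Over all 71 members without the filter, the median was 0.034 in HCT116, close to 0, and 0.56 in LOVO. In bulk RNA, fewer cells in a phase and less RNA per cell cannot be told apart, and no list was tested as a set. The members and lists were chosen with earlier results of these data known.

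**Figure D5:**
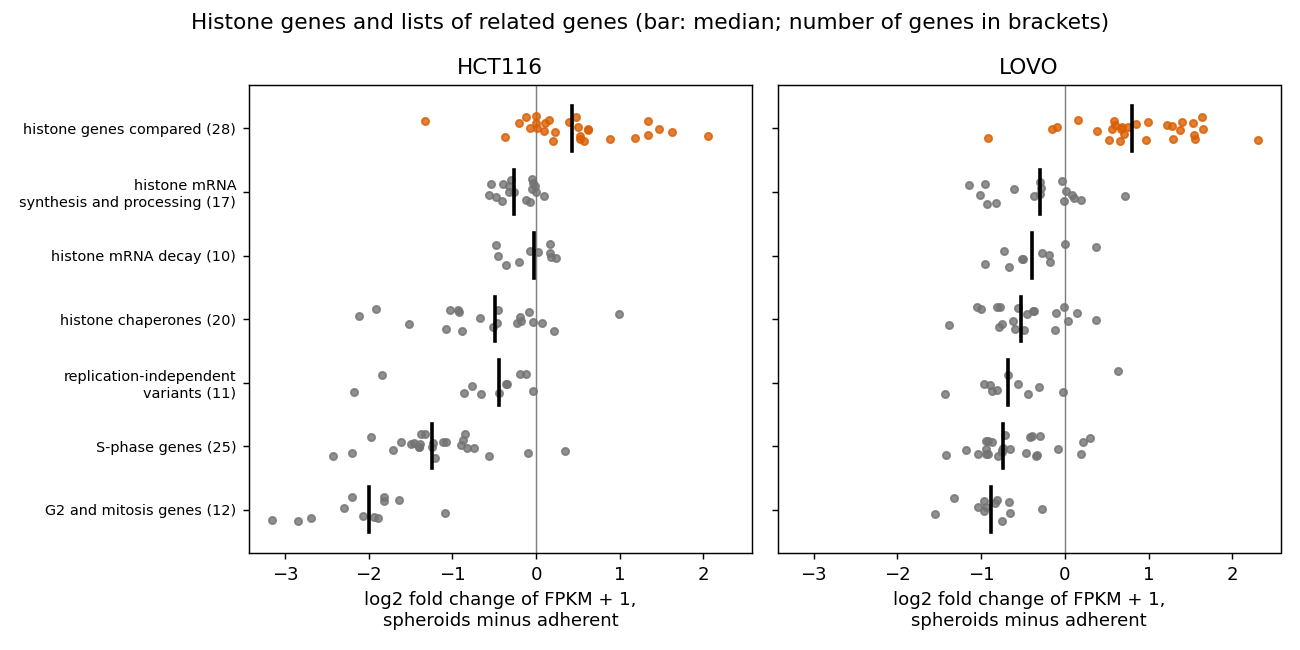
Points give the log2 fold change of FPKM + 1 (spheroids minus adherent) of single genes in HCT116 (left) and LOVO (right) for the 28 histone genes compared (orange) and for 6 lists of related genes (grey), with the number of genes in brackets, the median as a bar and a random vertical spread. The median of the histone genes lies at 0.43 and 0.80, and those of the S-phase list at -1.24 and -0.74 and of the mitotic list at -2.0 and -0.89. Over all 71 members without the filter, which are not all drawn, the medians were 0.034 and 0.56.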

How the data were processed

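RNA was extracted from 4 samples with the Rneasy mini plus kit and libraries were made with a SMARTER mRNA-Seq kit. The authors deposited FPKM per gene with a gene length, 1 column per library, and named edgeR for their test at a log fold change above 2. The aligner and counter are not given in the sources used here. The processing notes of the submitters name the builds GRCm38 and mm10, which are mouse builds, whereas gene identifiers, spans and lengths equal the human GENCODE 29 (GRCh38). Multiplied by length, 100% of the FPKM above 0 fell within 0.01 of whole reads of a step per library. These reads gave depth and 95% exact counting intervals, which cover counting error only, as PCR duplicates are not known. The library sizes behind the FPKM were 0.907 to 1.09 times the reads on genes. The files hold 0 other columns of sample values.

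Fold changes were taken on log2(FPKM + 1), spheroids minus adherent, within each line, for 14429 genes averaging 1 FPKM or more. limma 3.58.1 in R 4.3.3 (trend, cell line as covariate, Benjamini-Hochberg) was fitted across the lines, which stand in for replicates. It was also run on simulated data that held counting error only and the same changes in both lines. That run therefore does not show how the fit behaves on these data. No count model was used, since the unit is FPKM. Nothing in the labels names separate cultures. Sums, motifs and shared 50-base stretches were computed with Python 3.11.15, numpy 2.4.6 and pandas 2.3.3, and intervals with scipy 1.17.1. Genes named are the 3 members per class with the highest mean FPKM, the 5 highest and 5 lowest members by mean fold change with more than 3 reads in a library of each line, those with opposite intervals, those with 3 reads or fewer throughout, those of HIST2, HIST3 and HIST4, the testis genes, those of 1 kb or longer, and members of the lists. The members and lists were chosen with earlier results of these data known. Other pseudocounts, scalings, filters and member sets were tried.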

Additional observations from a re-analysis of the deposited data

Results flagged for a closer look

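In 6 of the 28 members compared, and in 16 of all 71, the spheroids were higher than adherent cells in one line and lower in the other, each on 1 library per condition, and the difference between the lines was not tested. Of all genes compared, 35.8% did so. Among these 6 members, the log2 fold change of HIST1H2AC was 1.46 in HCT116, against -0.16 in LOVO, and that of HIST3H2A was 0.47, against -0.088. On the TPM scale the LOVO values turned to 0.045 and 0.11. The other 4 members went the opposite way. HIST1H3B had -0.37 in HCT116 and 2.30 in LOVO, HIST1H2AG had -0.12 and 1.63, HIST3H2BB had -0.21 and 1.53, and HIST1H2BF had -0.068 and 0.85. Their counting intervals in HCT116 all included equal levels.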

How the results depend on the processing

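No paired analysis was possible because the labels carry no replicate numbers, other than the limma fit in which cell line is the covariate, and with 1 library per condition no replicate could be left out. The median over the histone genes kept its direction under every alternative run. With a pseudocount of 0.1 the median log2 fold change was 0.95 in HCT116 and 1.04 in LOVO, 13 histone genes were above 1 in HCT116, and 2 in HCT116 and 1 in LOVO were below -1; over all genes 764 and 2074 were above 1, 128 and 748 above 2, 760 below -1 in HCT116, and 184 and 274 below -2 (HCT116 first). With 0.01 the medians were 1.04 and 1.16, with 15 and 17 histone genes above 1 and 2 and 1 below -1; over all genes 937 and 2266 were above 1, 221 and 950 above 2, 849 below -1 in HCT116, and 237 and 319 below -2. On the TPM scale, which moves the LOVO median of all genes from -0.055 to 0.095, the LOVO median was 1.15, with 17 histone genes above 1 and 1 below -1, and the log2 ratio of summed FPKM in LOVO was 1.22 for H1, 0.60 for H2A, 0.84 for H2B, 2.04 for H3, 0.98 for H4 and 0.97 for all; over all genes 613 and 2267 were above 1, 80 and 661 above 2, and 129 below -2 in HCT116. With trimmed-mean scaling the LOVO median was 0.90 and the LOVO ratios were 1.15 for H1, 0.53 for H2A, 0.77 for H2B, 0.91 for H4 and 0.90 for all. Centring gave 0.69 for H2B and 0.82 for all in LOVO. Without a filter the medians were 0.034 and 0.56, with 1 histone gene below -1 in LOVO and 520 genes above 1 in HCT116. At a mean FPKM of at least 5 the LOVO median was 1.34 over 14 members and 0 were below -1 in HCT116; over the fewer genes compared 135 and 627 were above 1 and 13 and 156 above 2. With more than 3 reads in a library of the line the LOVO median was 0.71, with 1 below -1. With members under 1 kb only, 3 and 6 histone genes were above 1 and the LOVO median was 0.96; the log2 ratio was 0.33 for H2A and -0.36 for H3 in HCT116, the latter turning direction, and 0.57 for H2B, 2.16 for H3 and 1.12 for H4 in LOVO, from fewer members. With 1 member per near-identical pair H4 in LOVO was 0.65. A pair of settings was added once the values were known: H3 without HIST1H3E had a log2 ratio of 0.11 in HCT116, and HIST2 without HIST2H2AC had 0.81 in HCT116 (-0.013 with it) and 1.71 in LOVO (1.41 with it). Except where fewer genes or members were read, the cause of these differences was not tested. limma gave 0 genes at an adjusted p under 0.05 in every alternative run, with 163 to 1906 at an unadjusted p under 0.05. In HCT116 the depth, 1302 and 2686 reads on all members, limits single genes.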
